A study of Mus musculus with 20 samples.

Results

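The antioxidant genes under NRF2 were examined in the gastrocnemius, the large calf muscle, of old mice given a plant extract. They comprised Nfe2l2, which encodes NRF2 itself, the NRF2 targets Nqo1, Hmox1, Gclc, Gclm, Srxn1 and Txnrd1, and the superoxide- and peroxide-removing enzymes Sod1, Sod2 and Cat. These 10 genes were taken by name, as antioxidant genes of interest for a polyphenol extract, from the 55401 genes listed in the count matrix. The rule itself used no measured value, but earlier results of these data were known when the genes were chosen. All 10 had at least 59 counts in every mouse and passed the filter on low counts.

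The mice were C57BL/6, an inbred strain, and all 20 were 24 months old when the muscle was taken. The 10 HK-treated mice (5 males and 5 females) had received Haenkenium (HK), a standardized extract of Salvia haenkei, in their drinking water at 0.5 mg per kg body weight per day from 20 months of age. The 10 untreated mice (5 males and 5 females) drank water without it. The labels name no allele, transgene or other agent in either group. The libraries came from 2 sequencing experiments, called batch 1 (4 HK-treated and 4 untreated mice) and batch 2 (6 HK-treated and 6 untreated mice). Both batches held males and females of both groups, so treatment, sex and batch could be fitted together. Setting treated against untreated mice asks how the extract altered gene expression in aged muscle.

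NRF2 is a transcription factor that is held in the cytoplasm and sent for degradation by KEAP1 with a CUL3 ubiquitin ligase. When electrophiles or oxidants modify KEAP1, NRF2 escapes, enters the nucleus, pairs with a small MAF protein and binds antioxidant response elements of genes for glutathione synthesis, thioredoxin recycling, quinone reduction and haem breakdown. Because this step acts on the protein, the level of the Nfe2l2 transcript is not a measure of NRF2 activity, and the transcripts of its targets are commonly read in its place. In muscle, contraction and mitochondrial respiration generate superoxide, which the superoxide dismutases convert to hydrogen peroxide and catalase and other peroxidases remove.

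The total count per mouse lay between 13900180 and 30469644, with a median of 17016047. All 12 listed skeletal muscle markers, among them Acta1, Ckm and Myh4, were detected, and their summed level was between 179699 and 243977 CPM in every mouse (CPM being counts scaled to the size of the library, with TMM factors). Macrophage, fibroblast, adipocyte, endothelial and red cell markers were also detected, since the tissue was sequenced whole. In such bulk tissue, fewer cells of a type and less RNA per cell cannot be told apart. Of the 3 factors fitted, batch had the most calls, 5062 of 13626 genes (37.1%) at an adjusted p under 0.05 by edgeR's quasi-likelihood test, against 2197 (16.1%) for sex and 0 (0%) for HK treatment.

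To show where an NRF2 binding sequence stands near these genes, the bases ahead of each transcription start were read from RefSeq promoters of build GRCm38.p6. The promoter table held 8 of the 10 genes, and not Hmox1 and Gclc. The core of the antioxidant response element was searched as TGACNNNGC on both strands within 250 bases before and 50 bases after each start. It was found in 12.4% of the 32851 promoters in the table, or in 10.2% when only the 250 bases ahead of the start were counted. Among the 8 genes, Nfe2l2, Gclm, Sod1 and Txnrd1 (its promoter 2 of 3) held it ahead of the start, and Srxn1 held it 28 bases after the start. A second motif, TGANTCA, which AP-1 factors bind, was found in 7.81% of the promoters and in Srxn1 alone among the 8 genes, at 102 and 45 bases ahead of the start. The match at 45 bases reads on as TGAGTCAGC, with G where TGACNNNGC has C, so the search did not count it. Looser forms of the antioxidant response element were not searched. No match of the first motif overlapped a match of the second. Nqo1, Sod2 and Cat held neither motif in this window.

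The promoters of Nfe2l2 on the minus strand, chr2:75704664-75704913, of Srxn1 on the plus strand, chr2:152105274-152105523, and of Gclm on the plus strand, chr3:122245307-122245556, are given because the results below turn on these genes. Each is the 250 bases ahead of the start, 5′ to 3′ on the gene's own strand. Capitals mark a match of TGACNNNGC in Nfe2l2 and Gclm, on the opposite strand in Gclm, and of TGANTCA in Srxn1.
Nfe2l2: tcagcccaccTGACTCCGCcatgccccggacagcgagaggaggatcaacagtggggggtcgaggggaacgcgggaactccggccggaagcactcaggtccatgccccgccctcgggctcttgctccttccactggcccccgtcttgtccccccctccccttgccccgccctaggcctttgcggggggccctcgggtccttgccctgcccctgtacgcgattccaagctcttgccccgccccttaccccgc
Srxn1: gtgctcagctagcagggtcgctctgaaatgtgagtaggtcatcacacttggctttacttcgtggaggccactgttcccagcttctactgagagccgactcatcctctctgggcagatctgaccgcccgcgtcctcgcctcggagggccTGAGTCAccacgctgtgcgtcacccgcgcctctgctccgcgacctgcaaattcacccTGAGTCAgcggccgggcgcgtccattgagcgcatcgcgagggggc
Gclm: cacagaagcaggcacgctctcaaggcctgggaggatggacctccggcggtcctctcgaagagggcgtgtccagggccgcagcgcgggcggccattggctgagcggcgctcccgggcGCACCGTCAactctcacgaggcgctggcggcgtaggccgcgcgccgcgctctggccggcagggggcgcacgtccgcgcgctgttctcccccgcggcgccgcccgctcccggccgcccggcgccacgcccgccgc

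In Txnrd1 and Sod1 the match of TGACNNNGC stood nearer to the start, at 92 and 56 bases, and on the opposite strand in both. These 2 sites are given with 10 bases on each side, for Txnrd1 at chr10:82859104-82859132 and for Sod1 at chr16:90220696-90220724, both on the plus strand, with the match in capitals.
Txnrd1: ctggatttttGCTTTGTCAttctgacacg
Sod1: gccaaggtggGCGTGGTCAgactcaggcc
A match describes these letters only, and binding of a factor was not measured.

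Per length of exon sequence, the peroxide- and superoxide-removing enzymes stood at the top of the 10 genes and the 2 subunits of the glutathione-synthesis enzyme near the bottom. Over 20 mice the mean level was 33.8 ± 5.02 (SD) RPKM, the CPM per kilobase of exon, for Cat (catalase), 26.4 ± 4.03 for Sod1 (the cytosolic copper-zinc dismutase) and 24.8 ± 2.96 for Sod2 (the mitochondrial manganese dismutase). Srxn1, at 17.7 ± 10.6 RPKM, Nqo1, at 17.3 ± 2.89 RPKM, Nfe2l2, at 14.6 ± 6.97 RPKM, and Txnrd1, at 13.4 ± 2.33 RPKM, followed. Gclc, at 3.92 ± 0.523 RPKM, Hmox1, at 3.55 ± 1.39 RPKM, and Gclm, at 2.53 ± 0.464 RPKM, were the lowest. Of the 9 neighbouring pairs in this order, only Txnrd1 and Gclc had ranges over mice that did not overlap. The order depends on the length used: over the coding transcript, Sod1 came first, at 163 RPKM, and Cat second, at 52.1 RPKM, with Sod2 again after them, and the lowest were Gclm, at 4.83 RPKM, Gclc, at 4.32 RPKM, and Hmox1, at 3.97 RPKM. Gclm shares 4.71% of its exon bases with 2 other annotated genes, which had 19 and 6 counts over all mice against 5826 for Gclm.

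HK treatment left the antioxidant genes without a called change. Across all genes, edgeR's quasi-likelihood test called 0 of 13626 (0%) at an adjusted p under 0.05, with 835 (6.13%) at an unadjusted p under 0.05, DESeq2's Wald test called 7 and limma voom 0. None of those calls was among the 10 genes. Of the 10 genes, 5 had a higher and 5 a lower estimate in HK-treated mice, and the median of their log2 fold changes was -0.01, where that of all genes tested was 0.00. Only Nfe2l2, or 1 of 10, had an unadjusted p under 0.05, against 2.78% of all genes in that direction.

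**Figure D1:**
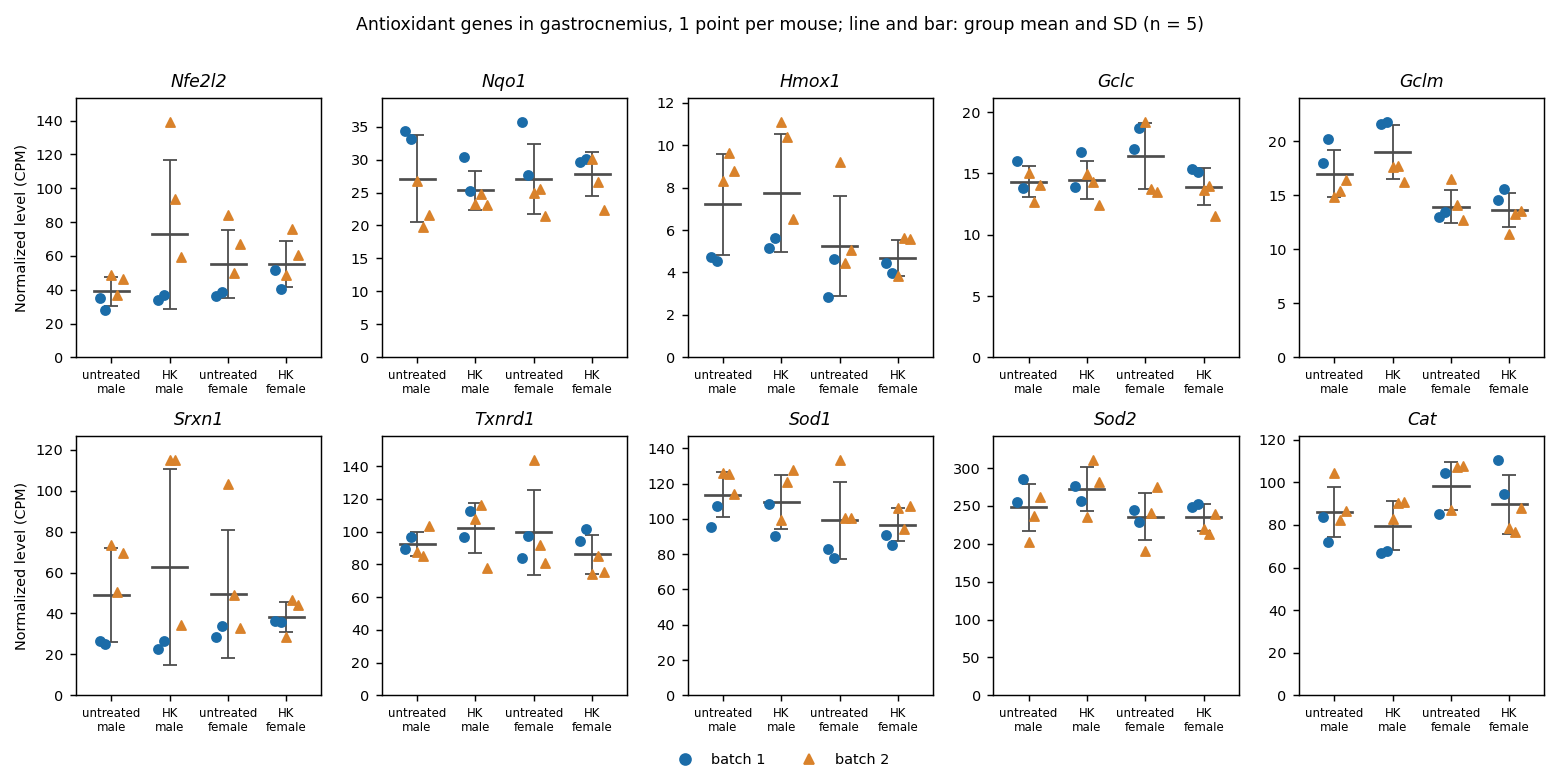
Level of each of the 10 genes in each mouse, in CPM on a linear axis from 0, by treatment and sex (5 mice per group), with batch 1 as blue circles and batch 2 as orange triangles. The line is the group mean and the bar its SD. HK male 3 stands highest for Nfe2l2, at 139 CPM, and females sit lower than males for Gclm and Hmox1.

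Nfe2l2, the transcript of NRF2, was between 34.2 and 139 CPM (median 55.4) with HK and between 28.1 and 83.9 CPM (median 42.5) without it. The groups overlapped, and 7 of 10 HK-treated mice stood above the untreated median. The highest level was that of HK male 3 (139 CPM), followed by HK male 4 (93.4 CPM) and untreated female 3 (83.9 CPM), all of batch 2. For Nfe2l2 the log2 fold change was 0.42 (SE 0.17), or 1.34-fold with a 95% interval of 1.04 to 1.72, with an unadjusted p of 0.0252 and an adjusted p of 0.795. The estimate was 0.27 without HK male 3, the lowest of the 20 values obtained when each mouse was left out. Within batch 1 the log2 fold change was 0.24 (SE 0.10), and within batch 2 it was 0.52 (SE 0.26), with adjusted p values of 0.997 and 0.758.

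By sex, Nfe2l2 in males ranged from 34.2 to 139 CPM under HK and from 28.1 to 48.7 CPM without it, and 3 of 5 HK-treated males exceeded every untreated male. In females it ranged from 40.3 to 75.7 CPM under HK and from 36.1 to 83.9 CPM without it. The log2 fold change was 0.76 (SE 0.24) in males alone and 0.04 (SE 0.16) in females alone, with adjusted p values of 0.656 and 0.99998. The difference itself, females minus males, was -0.73 (SE 0.31) on the log2 scale, with an unadjusted p of 0.0297 and an adjusted p of 0.998 for the interaction term. That term called 0 of 13800 genes (0%), with 3.50% at an unadjusted p under 0.05, so no difference between the sexes was shown for Nfe2l2. The corresponding term for batch also called 0 of 13800 genes (0%), with 3.01% at an unadjusted p under 0.05 and none of the 10 genes among them.

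No target passed the test in the HK-treated group. Nqo1, which reduces quinones, was between 22.4 and 30.4 CPM (median 25.9) with HK and between 19.8 and 35.8 CPM (median 26.2) without it, and the log2 fold change was -0.02 (95% interval -0.17 to 0.14). Hmox1, which opens the haem ring, was between 3.83 and 11.1 CPM (median 5.59) with HK and between 2.87 and 9.63 CPM (median 4.89) without it, and the log2 fold change was 0.01 (95% interval -0.29 to 0.30). For both genes the groups overlapped over most of their range.

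Gclc and Gclm encode the catalytic and modifier subunits of glutamate-cysteine ligase, the rate-limiting enzyme of glutathione synthesis. Gclc was between 11.5 and 16.7 CPM (median 14.1) with HK and between 12.6 and 19.2 CPM (median 14.5) without it. Gclm was between 11.4 and 21.8 CPM (median 15.9) with HK and between 12.7 and 20.2 CPM (median 15.1) without it. The estimates had opposite signs, with a log2 fold change of -0.11 (95% interval -0.27 to 0.04) for Gclc and 0.07 (95% interval -0.08 to 0.21) for Gclm. The adjusted p was 0.832 for Gclc and 0.881 for Gclm.

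Srxn1 encodes sulfiredoxin, which restores over-oxidized peroxiredoxins, and Txnrd1 the cytosolic thioredoxin reductase. Srxn1 was between 22.6 and 115 CPM (median 36.0) with HK and between 25.1 and 103 CPM (median 41.4) without it. HK male 3 and HK male 4 (115 CPM in each) and untreated female 3 (103 CPM) were again the 3 highest mice. The log2 fold change of Srxn1 was 0.03 (95% interval -0.48 to 0.53), or 0.719-fold to 1.45-fold, the widest interval of the 10 genes. Txnrd1 was between 74.2 and 116 CPM (median 95.5) with HK and between 80.7 and 144 CPM (median 90.7) without it, with a log2 fold change of -0.03 (95% interval -0.25 to 0.19).

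For the dismutases and catalase the HK-treated and untreated mice overlapped as well. Sod1 was between 85.4 and 128 CPM (median 103) with HK and between 77.6 and 134 CPM (median 104) without it. Sod2 was between 213 and 311 CPM (median 251) with HK and between 190.3 and 286 CPM (median 243) without it. Cat was between 67.1 and 111 CPM (median 85.2) with HK and between 72.2 and 108 CPM (median 86.9) without it. Their log2 fold changes were -0.04 (95% interval -0.17 to 0.10) for Sod1, 0.06 (95% interval -0.08 to 0.21) for Sod2 and -0.12 (95% interval -0.29 to 0.05) for Cat, with adjusted p values between 0.832 and 0.936.

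**Figure D2:**
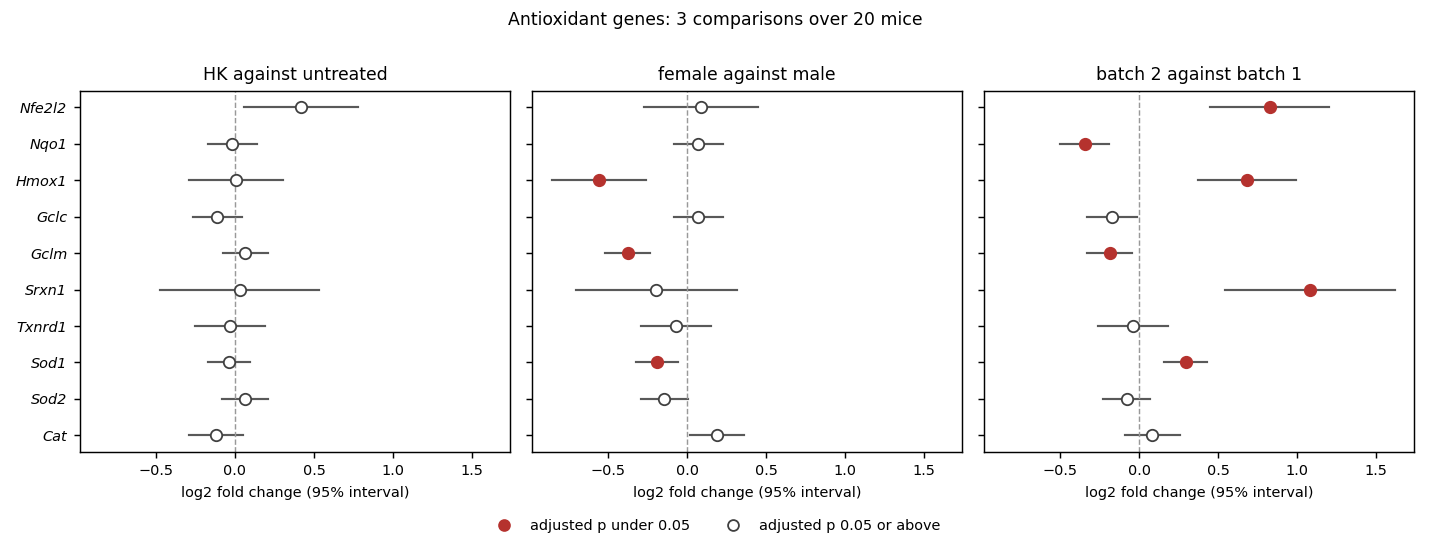
Log2 fold change of the 10 genes with its 95% interval, on 1 shared axis, for HK against untreated, female against male and batch 2 against batch 1 (20 mice, edgeR). Filled points have an adjusted p under 0.05: none for HK, Hmox1, Gclm and Sod1 for sex, and 6 genes for batch.

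The other genes of these pathways were given by 7 lists of NRF2 regulators, quinone and xenobiotic enzymes, glutathione, thioredoxin, superoxide sources and partners, NADPH supply, and haem and iron. Of their 88 genes tested for HK treatment, 43 had a higher and 45 a lower estimate, 0 were called (0% of all genes), and 5 higher and 2 lower had an unadjusted p under 0.05, where 2.78% of all genes were higher and 3.35% lower at that level. The median over the 88 genes was 0.00, as it was over all genes tested. In the list of superoxide sources and partners, 9 of 11 genes had lower estimates (median -0.21), none at an unadjusted p under 0.05, and among the NRF2 regulators 7 of 11 had higher ones (median 0.07), 2 of them at an unadjusted p under 0.05. Within the lists, the gene with the lowest p was Maff among the regulators, a small MAF partner of NRF2. Maff was between 1.80 and 63.3 CPM (median 6.25) with HK and between 1.45 and 17.4 CPM (median 4.52) without it. Its log2 fold change was 0.999 (SE 0.42, adjusted p 0.795) and 0.43 without HK male 3, the highest mouse, which was also the highest for Nfe2l2. For Maff the estimate was 1.74 in males alone and 0.27 in females alone, neither of them called.

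In the other lists the lowest p belonged to Akr1b8, an aldo-keto reductase (log2 fold change -0.44, SE 0.20), Glrx2, the mitochondrial glutaredoxin (0.13, SE 0.05), Msrb3, a methionine sulfoxide reductase (0.17, SE 0.07), Selenon, a selenoprotein of the sarcoplasmic reticulum (-0.32, SE 0.16), Pgd, of the pentose phosphate pathway (-0.15, SE 0.07), and Tfrc, the transferrin receptor (-0.21, SE 0.19). Their adjusted p values were 0.795 for 5 of them and 0.857 for Tfrc. For Glrx2, 7 of 10 HK-treated mice stood above every untreated mouse and 1 below all of them. Glrx2 was picked by its p for HK, and the share of all genes with such a separation was not computed. KEAP1's own transcript, Keap1, had a log2 fold change of 0.07 (SE 0.06), and that of Bach1, a repressor at the same elements, 0.30 (SE 0.14, adjusted p 0.795).

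**Figure D3:**
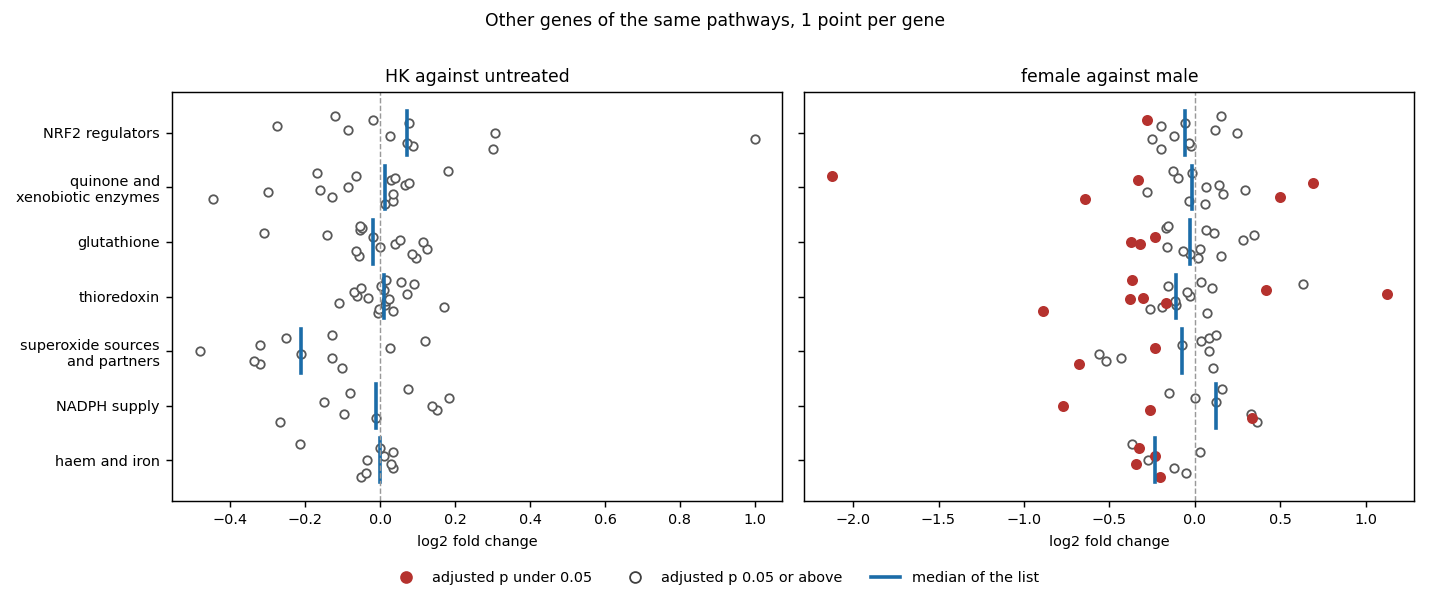
Log2 fold change of each gene of the 7 pathway lists, 1 point per gene, for HK against untreated (left) and female against male (right, on a wider axis), with the median of each list as a blue line. No point is filled for HK, where 0 of 88 genes had an adjusted p under 0.05, and 25 are filled for sex, 20 of them lower in females.

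Markers of fibre types and other cells were set beside these values, and none was called for HK treatment. All 8 slow fibre markers had lower estimates in HK-treated mice (median -0.70), and 5 had an unadjusted p under 0.05, where 3.35% of all genes were lower at that level, with summed levels of 862 to 4069 CPM with HK and 895 to 7213 CPM without it. By sex, the median summed level was 3762 CPM with HK and 3827 CPM without it in females, and 1069 and 1958 CPM in males, of which 1 untreated male had 7213 CPM. The HK effect in females minus that in males was positive for all 8 (median 1.19), with 3 at an unadjusted p under 0.05 and 0 called. Of 13 macrophage markers, 12 had lower estimates (median -0.29), with summed levels of 23.9 to 269 CPM with HK and 34.9 to 324 CPM without it. All 8 fibroblast and all 8 endothelial markers had lower estimates, and all 6 red cell markers tested had higher ones. Over all 13626 genes, 6944 had a higher and 6682 a lower estimate. At an unadjusted p under 0.05 stood 1 endothelial and 1 red cell marker, and 0 macrophage and 0 fibroblast markers. Adipocyte markers were 5 higher and 3 lower, and skeletal muscle markers 7 higher and 5 lower. No marker was at 0 in a whole group, and their part in the values of the antioxidant genes was not tested.

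Sex separated more of these genes than treatment did. Gclm, Hmox1 and Sod1 were lower in females, 3 of 10 genes against 8.79% of all genes called lower, and none of the 10 was higher, against 7.33% of all genes. Gclm had the clearest difference. It was between 11.4 and 16.5 CPM (median 13.5) in females and between 14.9 and 21.8 CPM (median 17.7) in males, and 8 of 10 females stood below every male. The log2 fold change of Gclm, female against male, was -0.38 (SE 0.07), or 0.770-fold, with an adjusted p of 0.000639. Within batch 1 it was -0.52 (adjusted p 0.00235) and within batch 2 it was -0.27 (adjusted p 0.103). Among HK-treated mice alone it was -0.47 (adjusted p 0.00457) and among untreated mice alone -0.26 (adjusted p 0.200).

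Hmox1 was between 2.87 and 9.18 CPM (median 4.54) in females and between 4.56 and 11.1 CPM (median 7.42) in males, and 9 of 10 females stood below the male median. The exception was untreated female 3. Female against male, the log2 fold change of Hmox1 was -0.56 (SE 0.14), or 0.679-fold, with an adjusted p of 0.0104, and it stayed past the threshold with each mouse left out in turn (adjusted p at most 0.0255). Within batch 1 it was -0.33 (adjusted p 0.252) and within batch 2 it was -0.70 (adjusted p 0.0482). Counts of Hmox1 were low, between 59 and 176 per mouse.

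Sod1 was between 77.6 and 134 CPM (median 97.5) in females and between 90.4 and 128 CPM (median 111) in males, so the ranges overlapped widely. The highest of all mice was untreated female 3, and 9 of 10 females stood below the male median. Female against male, the log2 fold change of Sod1 was -0.19 (SE 0.06), or 0.875-fold, with an adjusted p of 0.0443. The call was lost in 14 of the 20 fits that left out a mouse, with adjusted p values from 0.00460 to 0.104, and the estimate within batch 1 was -0.25 (adjusted p 0.0821) and within batch 2 -0.15 (adjusted p 0.333).

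Cat had the only positive estimate with an unadjusted p under 0.05, 0.19 (SE 0.08, adjusted p 0.125), where 14.8% of all genes were higher at that level. Catalase transcripts were between 85.3 and 111 CPM in the 4 females of batch 1 and between 67.1 and 83.9 CPM in its 4 males, which did not overlap, and between 76.7 and 108 CPM against 82.5 and 105 CPM in batch 2, which did. The log2 fold change of Cat was 0.45 (adjusted p 0.0217) in batch 1 and 0.01 (adjusted p 0.939) in batch 2. Srxn1, with a pooled log2 fold change of -0.19 (SE 0.25, adjusted p 0.641), had opposite signs in the batches. Its 4 females of batch 1 were between 28.4 and 36.3 CPM and its 4 males between 22.6 and 26.7 CPM, a log2 fold change of 0.41 (adjusted p 0.0215), whereas in batch 2 the estimate was -0.60 (SE 0.35, adjusted p 0.317). The difference between batches in the effect of sex was not tested. Nfe2l2, Nqo1, Gclc, Txnrd1 and Sod2 had log2 fold changes between -0.14 and 0.09 for sex, with adjusted p values from 0.172 to 0.780.

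The wider pathways also held more genes lower in females. Of the 88 genes in the 7 lists, 20 were called lower, against 8.79% of all genes, and 5 higher, against 7.33%. Their median log2 fold change was -0.06, and the medians of the lists ran from -0.23 for haem and iron to 0.12 for NADPH supply. In the list of haem and iron, 4 of 9 were lower (8.79% of all genes), namely the haem transporter Slc48a1, the ferritin heavy chain Fth1, the constitutive haem oxygenase Hmox2 and the biliverdin reductase Blvra. In the thioredoxin list, 5 of 18 were lower (Msrb1, Prdx2, Prdx4, Prdx5 and Txnrd3) and 2 of 18, the sestrins Sesn1 and Sesn3, were higher, where 8.79% of all genes were lower and 7.33% higher. In the glutathione list, 3 of 15 were lower (8.79% of all genes), namely the peroxidases Gpx1 and Gpx4 and the glutaredoxin Glrx5. Of 15 quinone and xenobiotic enzymes 3 were lower and 2 higher, and of 9 NADPH supply genes 2 were lower and 1 higher. Among superoxide sources and partners 2 of 11 were lower, among NRF2 regulators 1 of 11, and 0 were higher in either. Beside these stand 8.79% of all genes lower and 7.33% higher.

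The genes with the lowest p of each list are its extremes and do not stand for the list. Mgst1, a microsomal glutathione S-transferase, was between 4.95 and 19.6 CPM in females and between 31.6 and 60.8 CPM in males, with no overlap and a log2 fold change of -2.12 (SE 0.19, adjusted p 9.79e-08). Msrb1, a selenium-dependent methionine sulfoxide reductase, was between 48.3 and 67.4 CPM in females and between 69.3 and 126 CPM in males, again with no overlap, and its log2 fold change was -0.89 (SE 0.08, adjusted p 2.39e-07). Slc48a1 was between 35.0 and 42.6 CPM in females and between 43.2 and 53.0 CPM in males, also without overlap. Its log2 fold change was -0.33 (SE 0.05, adjusted p 0.000103). These genes were picked by their p for sex, and the share of all genes without overlap was not computed. Me2, the mitochondrial malic enzyme (-0.77, SE 0.16), Gpx1 (-0.37, SE 0.07), Sqstm1, the p62 adaptor that binds KEAP1 (-0.28, SE 0.07), and Park7, the protein DJ-1 (-0.23, SE 0.05), had adjusted p values between 0.00104 and 0.00680. Each of these 4 calls was lost in 3 of 11 other settings, all of them fits of 1 batch or 1 treatment group, and Me2 was -0.37 within batch 1 and -1.04 within batch 2. Among the genes called higher in females, Gstm2 belongs to a family of similar transferase genes between which the counting could split reads. Such splitting was not checked for any gene of the lists, called higher or lower.

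Fibre and cell type markers moved with sex beside these genes. Of 12 skeletal muscle markers 4 (Ckm, Tnnt3, Tnni2 and Tnnc2) were called lower in females, against 8.79% of all genes, and 1 (Myh2) higher, with a median of -0.17 and summed levels of 179699 to 243977 CPM in females and 185106 to 236995 CPM in males. Of 8 slow fibre markers 7 were called higher in females (median 1.15), against 7.33% of all genes, with summed levels of 2790 to 5260 CPM in females and 862 to 7213 CPM in males. Of 8 adipocyte markers 6 were called higher in females (median 1.29), again against 7.33%, with summed levels of 294 to 789 CPM in females and 245 to 593 CPM in males. Of 13 macrophage markers 1, Cd68, was called lower in females, and 12 had a lower estimate, with summed levels of 40.6 to 203 CPM in females and 23.9 to 324 CPM in males. Of 8 fibroblast markers 1, Col1a2, was called lower in females. Within batch 2, where Hmox1 differed most, the summed macrophage level was 73.5 to 203 CPM in females and 119 to 324 CPM in males. No marker of these lists was at 0 in either sex, and their part in the lower Gclm, Hmox1 and Sod1 was not tested.

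Batch moved 6 of the 10 genes, 4 of them higher in batch 2 against 18.2% of all genes and 2 lower against 19.0%. Srxn1 was between 22.6 and 36.3 CPM (median 27.6) in batch 1 and between 28.5 and 115 CPM (median 49.8) in batch 2, where 9 of 12 mice exceeded every mouse of batch 1. Its log2 fold change was 1.08 (SE 0.26, adjusted p 0.00287). Nfe2l2 was between 28.1 and 51.5 CPM (median 36.6) in batch 1 and between 37.0 and 139 CPM (median 60.0) in batch 2, a log2 fold change of 0.83 (SE 0.18, adjusted p 0.00152). Hmox1 (0.68, SE 0.15) and Sod1 (0.29, SE 0.07) were also higher in batch 2, with adjusted p values of 0.00149 and 0.00175.

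Nqo1 went the other way. It was between 25.2 and 35.8 CPM (median 30.2) in batch 1 and between 19.8 and 30.1 CPM (median 23.97) in batch 2, where 8 of 12 mice stood below every mouse of batch 1. Its log2 fold change was -0.35 (SE 0.08, adjusted p 0.00152). Gclm was lower by a smaller amount (-0.19, SE 0.07, adjusted p 0.0381), and this call was lost in 8 of the 20 fits that left out a mouse and in 5 of 8 other settings, with an adjusted p of 0.0532 under DESeq2 size factors and 0.121 without a filter on low counts. The calls of Nqo1, Hmox1, Srxn1 and Sod1 were each lost in 1 of the 8, HK-treated mice alone, and that of Nfe2l2 in 0. All 13 macrophage markers (median 1.77), all 8 fibroblast markers (median 1.12) and 5 of 6 red cell markers tested were called higher in batch 2. The summed macrophage level was 23.9 to 81.6 CPM in batch 1 and 73.5 to 324 CPM in batch 2. The source of the difference between the sequencing experiments was not tested, and batch was a covariate in every comparison of treatment or sex given above that used both batches.

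From mouse to mouse, Nfe2l2, Hmox1, Srxn1, Txnrd1, Gclc and Gclm all had a positive r with each other over 20 mice, from 0.28 to 0.82. The sign was not stable for Gclm: without the 2 mice farthest from the median, r was -0.12 with Gclc and -0.07 with Hmox1 and with Srxn1, and within batch 1 it was -0.87 with Nfe2l2, -0.54 with Srxn1, -0.28 with Gclc and -0.08 with Hmox1. For Nfe2l2 and Txnrd1, r was -0.35 within batch 1. Those of Nqo1, Sod1, Sod2 and Cat with these genes lay on both sides of 0, from -0.52 to 0.36. Pearson's r and Spearman's rho were taken over 20 mice for the 45 pairs of genes after removal of batch, sex and treatment from log2 CPM, with two-sided permutation tests within mice of the same batch, sex and treatment. The removal was additive, so r also holds differences left between these sets of mice. Shuffling within sets keeps that part, so p does not follow the size of r. For Srxn1 and Cat, r was 0.29 (permutation p 0.754), and for Gclm and Cat it was -0.27 (permutation p 0.0666). Of the 45 pairs, 25 had a positive r and the median r was 0.11. The p values were adjusted over the 45 pairs, and 3 pairs passed by Pearson's r and 4 by Spearman's rho.

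Srxn1 and Txnrd1, which act in the same peroxiredoxin-thioredoxin cycle, had r = 0.78 (permutation p 0.00208, adjusted 0.0468) and rho = 0.77 (permutation p 0.00154, adjusted 0.0343). Without the 2 mice farthest from the median of Srxn1, HK male 3 and HK male 4, r was 0.75, and it was 0.30 within batch 1 and 0.86 within batch 2. Gclm and Txnrd1 had r = 0.75 (permutation p 0.000800, adjusted 0.0360) and rho = 0.64 (permutation p 0.00229, adjusted 0.0343), and r was 0.48 without untreated female 3 and HK female 3. Nfe2l2 and Hmox1 had r = 0.63 (permutation p 0.00321, adjusted 0.0481) and rho = 0.58 (permutation p 0.00383, adjusted 0.0431), and r was 0.45 without untreated female 3 and HK male 3. Within batch 1, which holds 8 mice, r was 0.55 for Gclm and Txnrd1 and 0.33 for Nfe2l2 and Hmox1, and within batch 2 it was 0.82 and 0.69. The last 2 relations were smaller without pairs of mice that each included untreated female 3, the highest of all mice for Gclc, Txnrd1 and Sod1. Nfe2l2 and Gclc passed by rho only, with rho = 0.64 (permutation p 0.00150, adjusted 0.0343) and r = 0.63 (permutation p 0.00741, adjusted 0.0834), and r was 0.44 without untreated female 3 and HK male 3.

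The highest r of the 45, between Hmox1 and Srxn1, was 0.82 with a permutation p of 0.0205 and an adjusted p of 0.107, with rho = 0.78 (permutation p 0.0180, adjusted 0.101). It was 0.74 without untreated female 3 and HK female 3. Nfe2l2 and Srxn1 had r = 0.73 (permutation p 0.0162, adjusted 0.107) and rho = 0.72 (permutation p 0.0249, adjusted 0.112), with 0.55 within batch 1 and 0.76 within batch 2. Nfe2l2 and Nqo1, by contrast, had r = -0.02. The lowest r was that of Gclc and Sod2, -0.52 (permutation p 0.0558, adjusted 0.182), with rho = -0.58 (permutation p 0.0140, adjusted 0.0903).

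**Figure D4:**
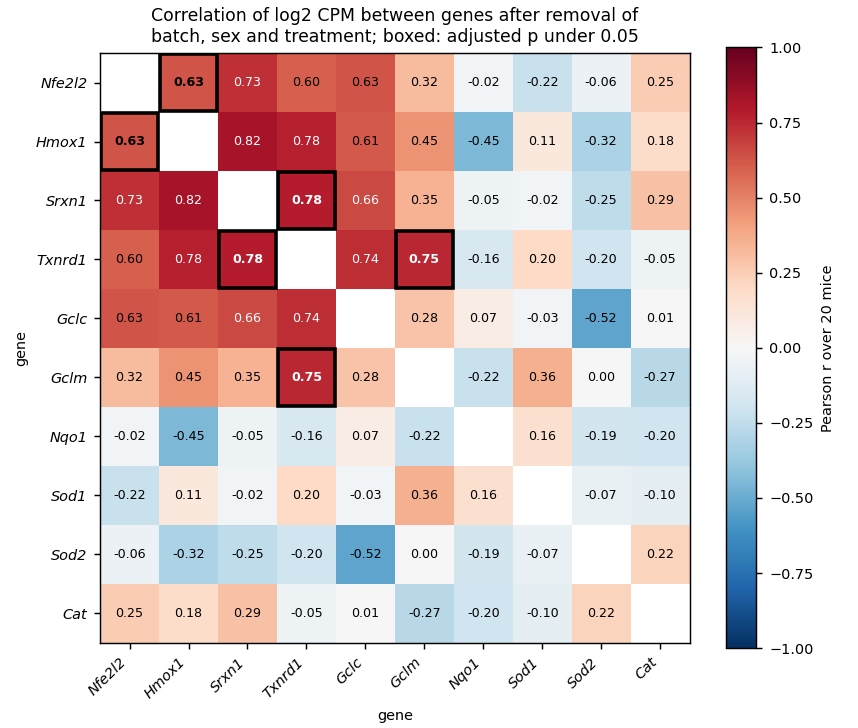
Pearson r between each pair of the 10 genes over 20 mice, from log2 CPM after removal of batch, sex and treatment, with red for positive and blue for negative values. Boxed cells have an adjusted p under 0.05: Srxn1 with Txnrd1 (0.78), Gclm with Txnrd1 (0.75) and Nfe2l2 with Hmox1 (0.63).

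Markers of other cells were set beside these genes in the same way, 70 relations in all, and none had an adjusted p under 0.05. Hmox1 had r = 0.60 and rho = 0.70 with the summed macrophage markers (permutation p 0.00428, adjusted 0.120), and r = -0.72 and rho = -0.77 with the summed skeletal muscle markers (permutation p 0.00344, adjusted 0.120). Srxn1 had r = 0.56 and rho = 0.61 with the macrophage markers (permutation p 0.00513, adjusted 0.120). Without the 2 mice farthest from the median of the gene, these values of r were 0.69, -0.72 and 0.56. Both macrophage values held in sign within each batch, at 0.69 and 0.59 for Hmox1 and 0.73 and 0.55 for Srxn1.

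Over the same adjusted values and all 13626 genes tested, the genes most like Nfe2l2 were Midn (r = 0.90) and Arid5b (r = 0.89), and those most like Srxn1 were Dusp5 (r = 0.88) and Dnajb4 (r = 0.87). Hmox1 was closest to Ftl1, the ferritin light chain (r = 0.91), and Runx1 (r = 0.90). Nqo1 was closest to Acbd4 (r = 0.81) and Ubtf (r = 0.80), and Cat to Gabarapl1 (r = 0.84) and Dnajc24 (r = 0.81). None of the 5 had another of the 10 antioxidant genes closest to it, and of those named here only Ftl1 stood in a pathway list, that of haem and iron. These values are a description of the highest of many correlations over 20 mice, and Dusp5 had a mean of 0.928 CPM only.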

How the data were processed

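RNA of whole gastrocnemius was sequenced after depletion of ribosomal RNA in 10 HK-treated and 10 untreated mice, and the treatment, sex, batch and replicate number of each were taken from the labels. The authors aligned reads with STAR 2.6.1c to GRCm38.p6, quantified genes with GENCODE M25 and deposited raw counts per gene, whole numbers without normalization or batch correction. The sources used here name neither the counting tool nor a strand setting. Names and exon lengths came from GENCODE M21, an older release on GRCm38 (55141 identifiers matched, and the 260 others held 0.00127% of counts). RNA of young mice was not analysed here.

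Counts were fitted in R 4.3.3 with edgeR 4.0.16: TMM scaling, filterByExpr (13626 genes), and treatment, sex and batch in 1 quasi-likelihood model with Benjamini-Hochberg adjustment. Interactions were fitted over 13800 genes. The p values of these fits weigh a difference against the spread between mice that is left after the fitted factors. CPM were computed from the counts with TMM-scaled totals and for correlations were taken as log2 with a prior count of 2. Permutation tests used 100000 resamples. DESeq2 1.42.0 and limma 3.58.1 gave alternatives, beside DESeq2 size factors, other filters, other covariates, a replicate block, each batch, sex or treatment group alone, and each mouse left out. Tested on simulated data for HK against untreated (13503 genes), the fit recovered 58.6% of 99 genes changed by 0.5 on the log2 scale and 88.7% of 97 changed by 1. Of its calls, 4% were false. The simulated counts were negative binomial, with the spread between mice that edgeR had estimated. The share recovered depends on how many genes are changed, and the real comparison called 0. These shares are therefore not the power for a single gene such as Nfe2l2 in the real data.

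The genes and lists were chosen with earlier results of these data known. Named were the 10 genes, the gene of each pathway list with the lowest p for treatment and for sex, and the 2 genes most like Nfe2l2, Nqo1, Hmox1, Srxn1 and Cat. Further genes were named after their values were seen: Keap1, Bach1 and the genes called for sex in the lists of haem and iron, glutathione and thioredoxin, and Gstm2. Nnt, with 2 identifiers, was left out.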

Additional observations from a re-analysis of the deposited data

Results flagged for a closer look

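In each of the 4 groups of 5 mice, the highest and lowest mouse was set against the others for each of the 10 genes after adjustment for batch, which made 40 sets, of which chance places about 1 in 20 past the limit. In 3 sets the gap between 1 mouse and its nearest neighbour, as a share of the whole range, was above Dixon's critical value of 0.71. Untreated female 3 stood above the other untreated females for Txnrd1 (144 CPM, share 0.748) and for Sod1 (134 CPM, share 0.801). HK female 5 stood below the other HK-treated females for Gclc (11.5 CPM, share 0.794).

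Without untreated female 3, the HK log2 fold change was 0.06 for Txnrd1 and 0.01 for Sod1, against -0.03 and -0.04 with all mice, and neither value was called.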

How the results depend on the processing

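No alternative called more than 1 of the 10 genes for HK treatment, and that call, Nfe2l2 without a filter on low counts (log2 fold change 0.43, adjusted p 3.92e-07), came from a fit in which the prior degrees of freedom were infinite, and which also called Maff (adjusted p 1.81e-16). It was not called with a minimum of 5 counts in total or with bias-adjusted quasi-likelihood and no filter, both chosen after seeing the data. The estimate for Nfe2l2 ranged from 0.04 (females alone) to 0.76 (males alone) over 13 settings. The unfiltered fit called 502 genes for HK, 314 for the interaction with sex and 225 for that with batch, where bias-adjusted quasi-likelihood called 1 for the last. DESeq2 called 7 genes for HK, and leaving out each mouse gave 0 to 1, the 1 without HK female 1. The median over the 10 genes for HK was -0.04 to 0.05 with each mouse left out.

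Genes called for sex numbered 1316 in batch 1 alone, 878 in batch 2 alone, 489 in untreated mice alone, 651 in HK-treated mice alone and 1827 to 2281 with each mouse left out. For batch they numbered 2192 in untreated mice alone, 1476 in HK-treated mice alone and 4451 to 5235 with each mouse left out. These fits used fewer mice than the main fit, and the cause of the drops was not tested. The call of Hmox1 for sex was lost in 4 of 11 settings, that of Gclm in 2 and that of Sod1 in 8.

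These HK estimates, none of them called, changed sign. In batch 1 alone, Txnrd1 was 0.14, Sod1 0.053 and Tfrc 0.12. In batch 2 alone, Nqo1 was 0.10, Hmox1 -0.11, Gclm -0.011 and Srxn1 -0.083. In females alone, Nqo1 was 0.040, Hmox1 -0.12, Gclm -0.033, Srxn1 -0.30 and Sod2 -0.013. In males alone, Gclc was 0.012 and Txnrd1 0.14. With limma voom, Srxn1 was -0.050, and without covariates Hmox1 was -0.0058. With each mouse left out, values were -0.047 to 0.10 for Hmox1, -0.057 to 0.014 for Nqo1, -0.10 to 0.17 for Srxn1, -0.074 to 0.063 for Txnrd1 and -0.061 to 0.0084 for Sod1. For sex, Nfe2l2 was -0.023 with sex as the only term, -0.028 in batch 2 alone and -0.26 in HK-treated mice alone, where Gclc was -0.058. In untreated mice alone Srxn1 was 0.085 and Txnrd1 0.12 for sex, and Txnrd1 was 0.093 for batch. In batch 1 alone Srxn1 was 0.41 for sex. The cause of these changes was not tested.

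Correlations of the deviations of same-numbered mice from the means of their treatment, sex and batch were 0.058 to 0.17 for the 5 female pairs and -0.42 to 0.052 for the 5 male pairs. In batch 1 each such mean was over 2 mice, so pairs 1 and 2 of a sex had the same value by construction. These values do not decide whether the mice were paired. The labels name no pairing, and the mice were not treated as paired. With a replicate block, 0 genes were called for HK and Srxn1 was -0.020.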
